A study of Rattus norvegicus with 98 samples.

Results

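Of the 65059 windows of 1 kb that carried H3K27ac peaks in at least 3 of the 4 libraries from the mediodorsal thalamus (MDT), 3473 were occupied in 5 or fewer of the 88 libraries from 23 other brain regions, and these 3473 MDT-restricted windows are described here. They made up 5.34% of the windows occupied in at least 3 MDT libraries, a share that the selection itself sets. A window was counted as occupied in a library when that library's peaks covered 500 bp or more of it, on chromosomes 1 to 20 of the Rn5 assembly. Across all regions except the habenula (HB), 284178 windows were occupied in at least 1 of 92 libraries. The habenula libraries took no part in the selection and were read separately.

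The series profiled H3K27ac by ChIP-seq in tissue micropunches of rat brain. Male Long-Evans rats, 2 months old, received fluoxetine at 18 mg/kg body weight per day in the drinking water (FT group) or plain water (Sham group) for 6 weeks. Each library came from punches pooled over several animals, with 2 replicate pools per treatment, so MDT was represented by Sham replicates 1 and 2 and FT replicates 1 and 2. In all, 94 peak lists from 25 regions were analysed, 47 per treatment, and 21 regions had all 4 libraries. The punches are bulk tissue, so a window seen in MDT may belong to any cell type of the punch, and a smaller number of such cells cannot be told apart from less acetylation per cell. The label MDT was not checked against marker genes, since an Rn5 annotation was not used here.

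H3K27ac is the acetylation of a lysine on the tail of histone H3. It is laid down by the acetyltransferases CBP and p300 at active promoters and enhancers, and distal sites that carry it differ between cell types far more than promoters do. The mediodorsal thalamus is a higher-order thalamic nucleus with reciprocal connections to the prefrontal cortex and is known for its part in working memory and behavioural flexibility. Its projection neurons are glutamatergic. The habenula, which relays forebrain signals to the monoaminergic nuclei of the midbrain, sits just above it. The label PVN is often used for a nucleus of the hypothalamus, but the study's list of regions gives it as the paraventricular nucleus of the thalamus, which lies beside the mediodorsal nucleus at the midline. Which nucleus was punched was not checked with the data here.

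The 4 MDT lists held between 39756 and 50507 peaks and occupied between 60945 and 82020 windows. The other lists, habenula left out, ranged more widely, from 19378 to 54505 peaks and from 19568 to 87556 windows. The read depth of the libraries is unknown from peak lists, so a window that is not occupied in a short list may be one whose signal was not called there. The Sham HB list stood apart, with 32584 peaks but only 10363 occupied windows on chromosomes 1 to 20, against 49668 peaks and 77887 windows in FT HB. Its peaks had a median width of 500 bp, against 1600 bp in FT HB, and a window needs 500 bp covered to count. A window not occupied in Sham HB may therefore still hold part of a peak.

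Within MDT, 1366 of the 3473 windows (39.3%) were occupied in 4 of 4 libraries and 2107 (60.7%) in 3. Outside MDT, 1458 windows (42.0%) were occupied in none of the 88 other libraries, and 565, 510, 354, 298 and 288 windows were occupied in 1, 2, 3, 4 and 5 of them. The limit at 5 did not fall in a gap of this distribution, because a further 269 windows in at least 3 MDT libraries were occupied in 6 others. The limit at 3 MDT libraries did not either, since 3470 windows in 5 or fewer other libraries were occupied in exactly 2. The core of the set, windows in all 4 MDT libraries and in no other library, held 485 windows (14.0%).

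**Figure D1:**
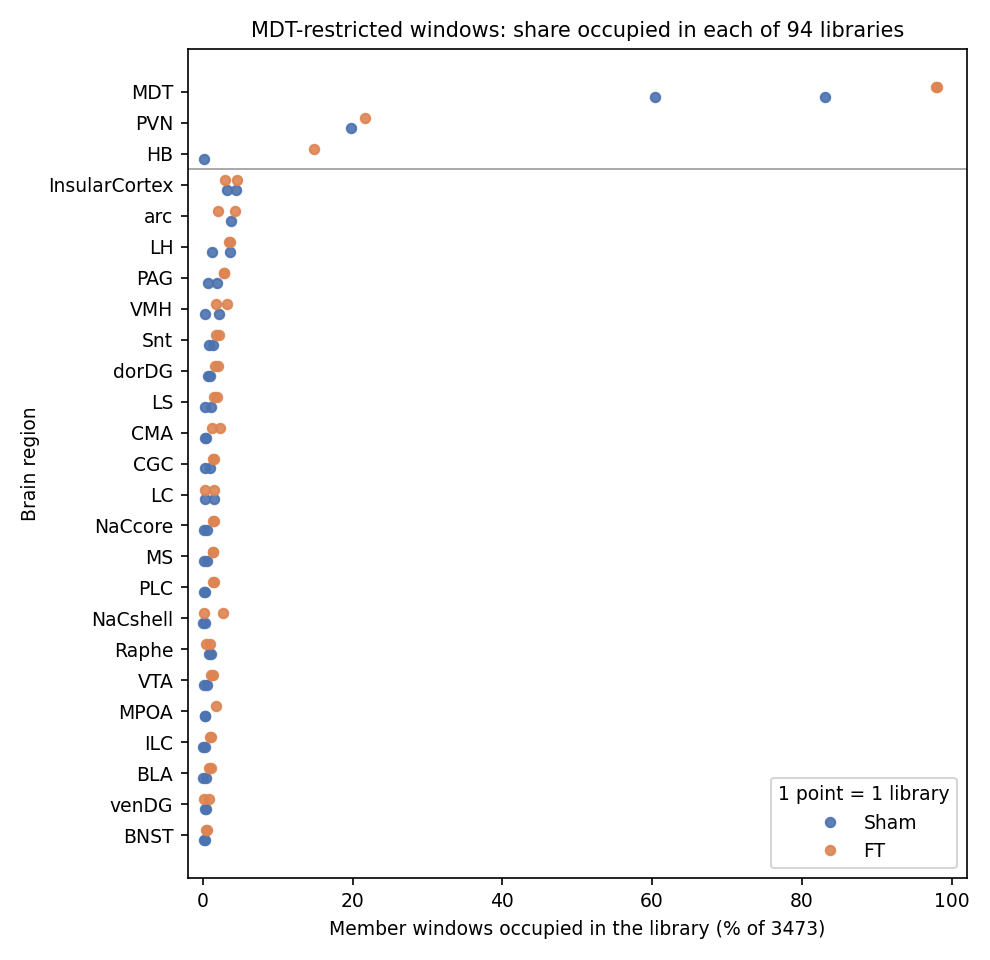
Percent of the 3473 MDT-restricted windows (horizontal axis) occupied in each of 94 libraries, grouped by brain region (vertical axis), with Sham libraries in blue and FT libraries in orange. MDT libraries lie between 60.4% and 98.0% because the windows were selected on them, both PVN libraries and FT HB lie between 14.8% and 21.6%, and every remaining library lies below 5%.

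Windows missing from 1 MDT library were mostly missing from a Sham library. Sham replicate 1 occupied 2886 of the members (83.1%), Sham replicate 2 occupied 2097 (60.4%), FT replicate 1 occupied 3403 (98.0%) and FT replicate 2 occupied 3399 (97.9%). Both FT values were above both Sham values, and the Sham replicates differed from each other far more than the FT replicates did. The shorter of the 2 Sham lists, replicate 2, accounted for 1376 of the 2107 windows that lacked 1 library. Among the 15363 windows of any kind occupied in exactly 3 MDT libraries, Sham replicate 2 was the missing one in a similar share, 64.0% against 65.3% among members.

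The first question was whether MDT restriction carried over to animals that had no part in choosing the windows. Windows were therefore chosen again on replicate 1 libraries alone, as those occupied in both MDT replicate 1 libraries and in at most 2 of the other replicate 1 libraries, which gave 2841 windows. They were then read in the 44 replicate 2 libraries, which came from other pools of animals. Sham MDT replicate 2 occupied 44.1% of the chosen windows, against 21.4% of all windows, and FT MDT replicate 2 occupied 86.4%, against 28.9% of all windows. The 42 replicate 2 libraries of other regions occupied 1.31% ± 1.18 (SD) on average, and the highest of them, Sham InsularCortex replicate 2, reached 4.96%. The difference between the MDT pair and the rest was 64.0 percentage points (exact permutation test over libraries, two-sided, p = 0.00211, the smallest that 2 of 44 libraries can give). The choice had already limited the other regions in replicate 1, so the test bears only on whether the restriction repeats in replicate 2. No such reading is given for windows chosen on another region, so the size of the difference has no yardstick. The libraries are not fully independent, since the regions were punched from the same Sham and FT pools. With the 23 regions permuted in place of libraries, the exact p was 0.0870, the smallest that 1 of 23 regions can give and above 0.05. Both MDT libraries lay far above the spread of the others, and the Sham library held far fewer of the chosen windows than the FT library. With Sham replicate 2 left out the difference was 85.1 points, and with FT replicate 2 left out it was 42.8.

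**Figure D2:**
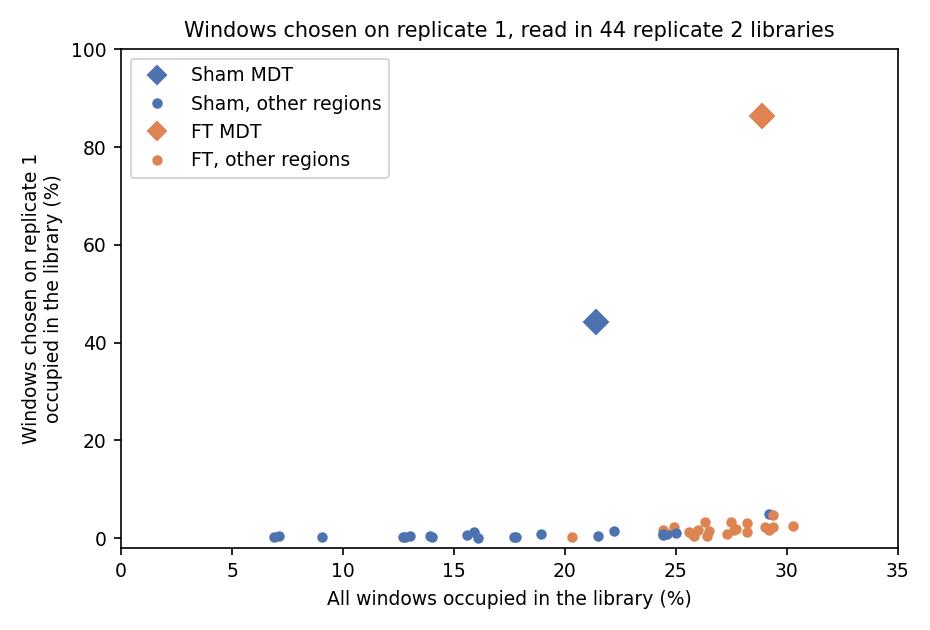
For windows chosen on replicate 1 libraries, the percent occupied in each of the 44 replicate 2 libraries (vertical axis) against the percent of all 284178 windows that the library occupies (horizontal axis). The MDT libraries (diamonds, 44.1% and 86.4%) lie above all 42 libraries of other regions (circles, at most 4.96%), including those that occupy as many windows in all.

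The reading was repeated with the replicates exchanged. Choosing on replicate 2 gave 2390 windows, which the MDT replicate 1 libraries occupied at 64.9% and 87.5%, with a mean of 3.46% in the 46 other libraries. The highest of these was FT PVN replicate 1 at 27.9%. PVN has libraries of replicate 1 alone, so the first reading could not include it. Choosing on Sham libraries and reading in FT libraries gave 88.4% and 87.4% in MDT against a mean of 4.43% elsewhere, and choosing on FT and reading in Sham gave 49.7% and 35.1% against 1.06%. In both of these readings the highest other library was again from PVN, at 28.9% and 15.5%.

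The members were mostly isolated single windows. Joining adjoining members gave 2909 loci, of which 2371 (81.5%) were 1 window long, 512 were 2 windows long and 26 were 3 windows long, the longest seen. The middle distance between neighbouring loci was 279 kb. Of neighbouring loci, 22.9% lay less than 50 kb apart and 6.72% less than 10 kb apart, values that were not compared with the spacing of other windows. Members also lay away from the peaks that most brain regions share. Their median distance from the nearest window occupied in at least 74 of the 92 libraries was 50 kb, whereas the other windows in 3 or more MDT libraries that were not themselves so widely shared had a median distance of 11 kb. Within 5 kb of a widely shared window lay 6.10% of members and 36.2% of those other windows. This distance is not particular to MDT, as windows selected by the same rule for 20 other regions had medians from 15.0 to 88.0 kb, the middle one being 50.5 kb.

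A peak that covered a member rarely reached a window shared by most regions, but it reached a less widely shared one in about 1 member in 5. In the 4 MDT libraries, between 1.59% and 2.10% of the members occupied lay under a peak that also covered a widely shared window. Between 17.7% and 21% lay under a peak that also covered a window occupied in more than 5 other libraries. In the remaining members, the MDT peak did not reach such a window.

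Members were found on every one of the 20 chromosomes, from 64 windows on chromosome 20 to 362 on chromosome 1. Relative to the windows occupied in 3 or more MDT libraries, their share ran from 3.71% on chromosome 20 and 3.88% on chromosome 3 to 7.37% on chromosome 16. Of 2361 intervals of 1 Mb that held any such window, 1270 held a locus. In 132 intervals there were 5 or more loci, and these intervals held 854 of the 2909 loci.

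The 2 densest 1 Mb intervals held the same number of loci. The first by position was on chromosome 1, from 284000001 to 285000000, with 15 loci made of 20 members among 65 windows in 3 or more MDT libraries (30.8%). Sham replicates 1 and 2 occupied 17 and 15 of its 20 members, and FT replicates 1 and 2 occupied 19 and 20. Many of these members were also occupied in PVN and HB, where Sham PVN occupied 13 of the members, FT PVN 14 and FT HB 13. An interval on chromosome 8, from 79000001 to 80000000, also held 15 loci, made of 17 members among 36 MDT windows (47.2%). Here the pattern was the opposite, with 1 member in each PVN library, 0 in FT HB and 12 in no other library at all. Its members were occupied in 16 and 9 cases by Sham replicates 1 and 2 and in 17 and 16 cases by FT replicates 1 and 2.

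The other 3 of the 5 densest intervals lay between these extremes. On chromosome 18, from 70000001 to 71000000, 13 loci of 13 members stood among 99 MDT windows, with 5 members in a PVN library and 2 in FT HB. On chromosome 2, from 254000001 to 255000000, 12 loci held 14 members, of which Sham replicate 2 occupied 4 and each other MDT library all 14. FT HB occupied 5 of them. On chromosome 10, from 28000001 to 29000000, 11 loci held 16 members, 9 of them in no other library and 1 in FT HB. The genes of these intervals are not named, because gene positions on Rn5 were not used here.

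**Figure D3:**
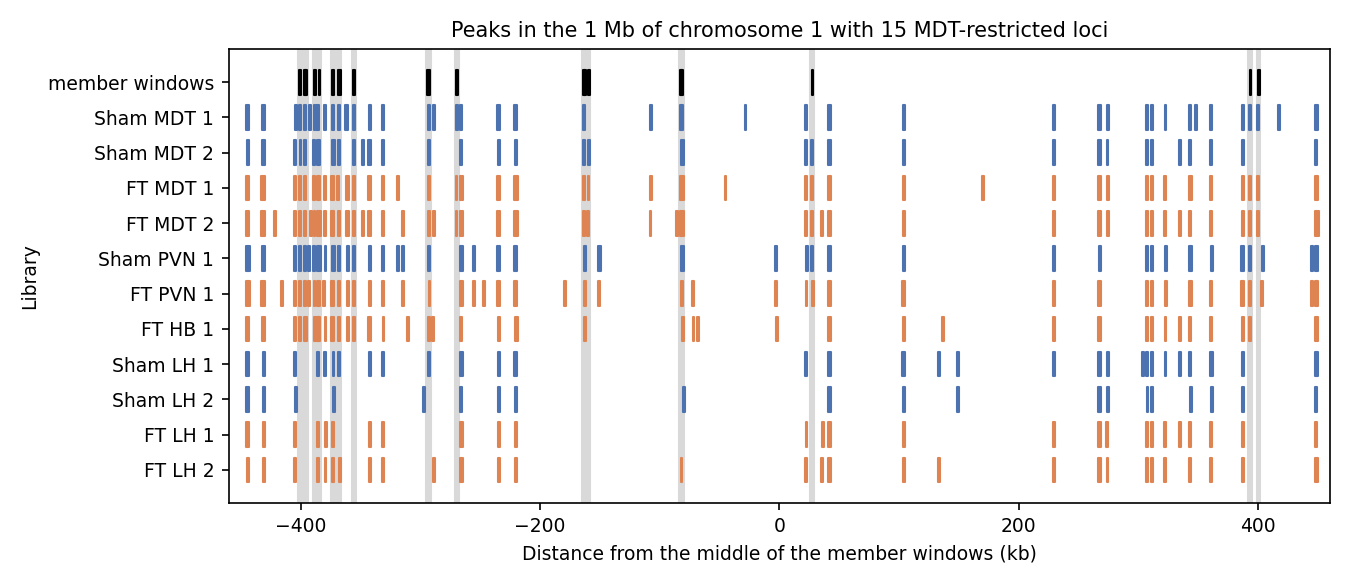
Peaks of 11 libraries (rows) in the 1 Mb of chromosome 1 that holds 15 MDT-restricted loci, drawn to scale as distance in kb from the middle of the member windows, with Sham peaks in blue, FT peaks in orange and members shaded in grey. Most of the shaded positions carry peaks in MDT, PVN and FT HB libraries and fewer in the 4 libraries of the lateral hypothalamus (LH) shown for comparison, and many of the peaks between them appear in most rows.

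The strongest MDT-exclusive loci could be ranked by how high their peak stood within each list. For each peak the percentile of its score among all peaks of its library was taken, so that 100 is the strongest peak of a list, and the mean over the 4 MDT libraries was used. Among the 305 loci whose windows were all occupied in 4 MDT and 0 other libraries, the first was on chromosome 8, from 84984001 to 84985000, with a mean percentile of 88.4. The significance of its peak, as the −log10 p-value given by the peak caller, was 100 and 72.8 in Sham and 94.9 and 111 in FT, so that all 4 libraries gave it a strong peak. The next was on chromosome 16, from 6616001 to 6617000, at 80.3, with −log10 p-values of 73.7 and 25.3 in Sham and 54.9 and 85.8 in FT. Another lay on the same chromosome, from 6879001 to 6880000, at 75.3, with 63.3 and 18.6 in Sham and 43.9 and 53.0 in FT. At both chromosome 16 loci the Sham replicates differed more than the treatments did.

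The 4th to 10th of these loci had mean percentiles from 65.2 to 71.8. A locus on chromosome 18, from 60610001 to 60611000, reached 71.8 with −log10 p-values of 33.7 and 22.7 in Sham and 35.5 and 41.1 in FT. One on chromosome 1, from 233333001 to 233334000, reached 69.6 with 22.5 and 20 in Sham and 50 and 32.7 in FT. One on chromosome 6, from 43441001 to 43443000, was 2 windows long and reached 66.9. The last 4 lay on chromosome 10 from 4908001 to 4909000, chromosome 19 from 30375001 to 30376000, chromosome 13 from 113790001 to 113791000 and chromosome 7 from 119636001 to 119637000. None of these 10 loci was occupied in FT HB, and 17 of the 305 were. All 10 still held a member window when every list was shortened to its 19378 best-scoring peaks. The loci were chosen for high scores and absence from other lists, which made this likely in advance, so it is no separate check.

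Of the 26 loci of 3 windows, 19 were in a PVN library and 4 in FT HB. Of the 2371 loci of 1 window, 344 were in FT HB. The first 10 by position are given here, since all have the same length. The locus on chromosome 2, from 276165001 to 276168000, was occupied in all 4 MDT and both PVN libraries and in none else, with −log10 p-values of 21 and 11.5 in Sham MDT and 58.9 and 60.7 in FT MDT. Both FT values there were above both Sham values, as at the loci on chromosomes 6, 4 and 1 given next. The locus on chromosome 6 from 108158001 to 108161000 had closer values, 24.3 and 26.1 in Sham and 33.5 and 36.6 in FT. It was also seen in Sham PVN. On chromosome 4, from 226769001 to 226772000, the values were 21.1 and 17.8 in Sham and 33.3 and 27.4 in FT, again with both PVN libraries. On chromosome 3, from 2237001 to 2240000, Sham replicate 2 had no peak on the locus, Sham replicate 1 had 25.6 and the FT libraries had 38.4 and 39.2. The locus on chromosome 1 from 283529001 to 283532000 was the single one of the 10 with no other library, with 15.5 and 6.06 in Sham and 16.8 and 17.2 in FT. The order of FT above Sham is not particular to these loci. Over all members the median −log10 p-value was 7.87 and 6.59 in Sham and 11 and 11.9 in FT. At the other windows in 3 or more MDT libraries it was 30.3 and 20.5 in Sham and 31.9 and 36.0 in FT.

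The other 5 loci of that group were weaker or more widely shared. They lay on chromosome 4 from 246745001 to 246748000, chromosome 6 from 896001 to 899000 and from 102019001 to 102022000, and chromosome 7 from 41529001 to 41532000 and from 51217001 to 51220000. Both on chromosome 7 had 1 window or more at the limit of 5 other libraries, drawn from cortex, hypothalamus and other regions. The pair on chromosome 6 were the 2 of the 10 that FT HB occupied. Of these 10 loci, 5 held a member window when every list was shortened to 19378 peaks.

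Where MDT-restricted windows were seen elsewhere, PVN was the leading region. Sham PVN occupied 687 members (19.8%) and FT PVN 750 (21.6%), and 1023 members (29.5%) were in at least 1 of the pair. In no other region did the mean over its libraries exceed 3.76%, the value for InsularCortex (range 2.91% to 4.49%), followed by arc, the arcuate nucleus, at 3.34%, LH at 3.00%, PAG, the periaqueductal grey, at 2.04% and VMH, the ventromedial hypothalamus, at 1.86%. BNST was lowest at 0.346%. PVN libraries occupied 26.0% of all windows on average, and InsularCortex libraries 28.0%. The part of list length in the order of regions was not tested. With 88 other libraries, PVN made up 1437 of the 5279 occurrences of a member outside MDT (27.2%). These values are a description, since the limit on other libraries selected the members. Windows selected by the same rule for the region LS were also often in PVN, at 17.6% on average, as the comparison of regions below shows.

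Members that PVN shared were stronger in MDT than members that no other library shared. The 507 members shared with PVN and no further region were in all 4 MDT libraries in 52.3% of cases, and their peaks had median percentiles of 41.2 and 31.8 in Sham and 48.4 and 50.3 in FT. The 1458 members in no other library were in all 4 in 33.3% of cases, with medians of 29.8 and 26.5 in Sham and 38.8 and 41.3 in FT. In each of the 4 libraries the PVN-shared members ranked higher. The 992 members shared with further regions and not PVN stood in between, with 35.3% in all 4 libraries and a mean of the 4 medians of 36.8, against 42.9 for the first class and 34.1 for the second.

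The habenula gave a reading that the selection had not used. FT HB occupied 515 of the 3473 members, or 14.8% (95% exact binomial interval 13.7 to 16.1, counting error only). This was below the 27.1% of all windows and the 83.9% of windows in 3 or more MDT libraries that FT HB occupied, both of which include the widely shared windows. Sham HB occupied 4 members (0.115%), but that list occupied few windows of any kind, 0.956% of all. With 1 library per treatment and the Sham one standing apart, no comparison between treatments was made in HB.

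Among windows in 5 or fewer other libraries, occupancy in FT HB was higher the more MDT libraries occupied the window. It was 2.13% where no MDT library occupied the window, 5.26% with 1 MDT library, 8.36% with 2, 12.5% with 3 and 18.4% with 4. The binomial intervals in this paragraph give counting error only, since windows are not independent samples and all were read in a single HB library. Differences between these shares were not tested. Part of this order goes with sharing outside MDT. Among windows in no other library at all, the share was 1.71% with 1 MDT library and 3.55% with 2. It was 5.86% (interval 4.47 to 7.52) with 3 and 6.39% (4.38 to 8.95) with 4, so that the last 2 values were close. Among members in 1 to 5 other libraries it was 18.2% with 3 MDT libraries and 25.1% with 4. By PVN, the share was 10% in the 2450 members in no PVN library, 18.4% in the 609 in 1 and 37.9% in the 414 in both. Members in both PVN libraries have at least 2 other libraries by definition. With the number of other libraries held at 2, the share was 32.4% (interval 26.0 to 39.2) where both were PVN and 21.4% (16.1 to 27.5) where neither was. FT HB also occupied 15.9% of the 2579 windows in both PVN libraries, no MDT library and 5 or fewer others. Counting PVN and FT HB together, 269 members (7.75%) were in both, 754 (21.7%) in PVN and not FT HB, 246 (7.08%) in FT HB and not PVN, and 2204 (63.5%) in neither.

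**Figure D4:**
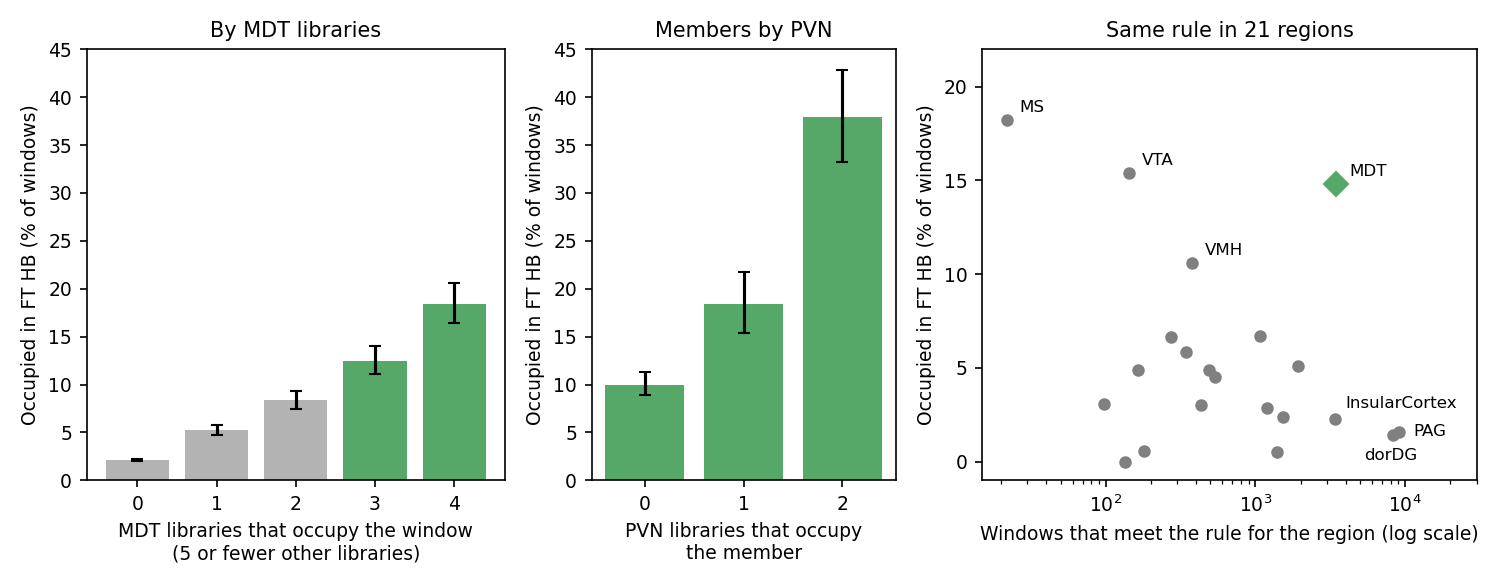
Percent of windows occupied in the FT HB library (vertical axes). Left, windows in 5 or fewer other libraries by the number of MDT libraries that occupy them (members in green); middle, members by the number of PVN libraries; both with 95% exact binomial intervals. Right, windows selected by the same rule for 21 regions, with their number on a log axis, where MDT (diamond) lies at 14.8% with 3473 windows, above each other region with 300 or more windows.

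Applying the same selection to each of the 21 regions with 4 libraries placed MDT at rank 3 by number, after PAG with 9114 windows and dorDG, the dorsal dentate gyrus, with 8311, and close to InsularCortex with 3420. The median of the 20 other regions was 460. With equal lists of 19378 peaks MDT had 804 windows and took rank 7, and with PVN left out of the limit on other libraries the full lists gave 3655 MDT windows. By the share of windows in no other library, MDT came first (42.0%, against 35.6% in dorDG and a median of 5.61% over the other 20). Its windows were also among the most often joined, with 81.5% of loci of 1 window, where 18 of the 20 others had a higher share. By FT HB occupancy, MDT's 14.8% was exceeded by MS, the medial septum (18.2% of 22 windows), and VTA, the ventral tegmental area (15.4% of 143). Among the 13 other regions with 300 or more windows the highest value was 10.6%, in VMH, and the median 3.02%. With equal lists, the MDT windows had the highest FT HB share of the 21 regions, at 11.1%, closely followed by VTA at 10.2% of 88 windows. By mean occupancy in the PVN libraries, MDT came first with full lists, at 20.7%. LS followed at 17.6%, and the median of the 20 other regions was 1.89%. With equal lists LS came first, at 20.1%, and MDT took rank 2, at 17.2%. A high PVN share was therefore not particular to MDT.

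MDT-restricted peaks were weaker than the other peaks of the same libraries. The median percentile of the score was 34.2 and 29.2 at members in Sham replicates 1 and 2 and 42.6 and 44.6 in FT replicates 1 and 2. At the other windows in 3 or more MDT libraries it was 70.1, 67.3, 69.9 and 71.2 in the same order. The median −log10 p-value at members was 7.87, 6.59, 11 and 11.9, against 30.3, 20.5, 31.9 and 36.0 at the other windows. The peaks were also narrower, with median widths of 1400, 1300, 1700 and 1700 bp against 1900, 1900, 2000 and 2000 bp. For windows selected likewise in the other 20 regions, the mean of the medians ranged from 26.2 to 54.3, and MDT, at 37.6, took rank 7 of 21.

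**Figure D5:**
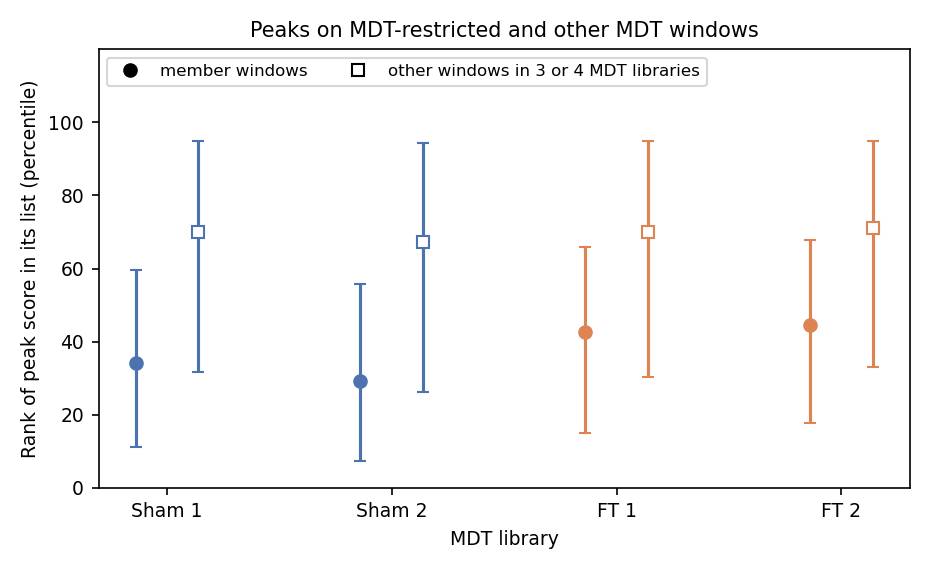
Rank of the peak score within its list, as a percentile (vertical axis), for each of the 4 MDT libraries (horizontal axis), with the median as a symbol and the 10th to 90th percentiles as bars. Member windows (filled circles, medians 29.2 to 44.6) lie below the other windows in 3 or 4 MDT libraries (open squares, 67.3 to 71.2) in every library, and the FT medians at members lie above the Sham medians.

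Between treatments within MDT, members occupied per library averaged 2492 ± 558 (SD, n = 2) in Sham and 3401 ± 2.83 (SD, n = 2) in FT, a difference of 910. These values are a description with no test, since the members were selected on the same 4 libraries and 93.2% of the 2107 members in 3 libraries lacked a Sham one. The difference was 515 with Sham replicate 2 left out and 1304 with Sham replicate 1 left out. The FT lists were longer, and per 1000 windows that each library occupied the members came to 40.1 and 34.4 in Sham and 42.6 and 41.4 in FT. On this scale the groups still did not overlap, but the difference of 4.76 was close to the SD of 4.02 between the Sham replicates. The other windows in 3 or more MDT libraries were likewise occupied more often in FT, at 98.5% in both libraries against 95.2% and 86.3% in Sham.

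The rank of members' peaks was 31.7 ± 3.48 (SD, n = 2) in Sham and 43.6 ± 1.42 (SD, n = 2) in FT, a difference of 11.9 percentile points, again a description of the libraries that selected the members. At the other MDT windows the difference was 1.84 points, smaller than the SD of 1.93 between the Sham replicates there, and the groups overlapped. Of all windows in exactly 3 MDT libraries, 86.9% lacked a Sham one. With equal lists the difference at members was 5.71 points.

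In the 20 other regions with 2 libraries per treatment, the members had slightly higher values in FT than in Sham libraries when the full lists were used, but not with equal lists. The limit on other libraries had used these lists, so the values are given with no test. Per 1000 windows occupied, the mean was 0.449 in Sham and 0.732 in FT, a difference of 0.283 against an SD of 0.248 between replicates of a region and treatment, with FT higher in 17 of 20 regions. With equal lists of 19378 peaks the difference was -0.0299 and 9 of 20 regions were higher in FT. The FT lists of these regions occupied 75797 windows on average and the Sham lists 56340, with more windows in FT in 18 of 20 regions. Windows in 1 to 5 other libraries that were no members were also more frequent in FT, 48.7 against 38.8 per 1000, a ratio of 1.26 where members had 1.63. For these windows FT was higher in 13 of 20 regions. The regions were punched from the same pools of animals, so they are not independent replicates of the treatment.

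With full lists, both FT libraries lay above both Sham libraries in 12 of the 20 regions, in 1 both lay below and in 7 they overlapped. The largest difference was in PAG, with 0.986 and 0.495 members per 1000 windows in Sham and 1.36 and 1.41 in FT. NaCcore, the core of the nucleus accumbens, had 0.0779 and 0.353 in Sham and 0.626 and 0.663 in FT, and CMA, the centromedial amygdala, had 0.269 and 0.180 in Sham and 0.559 and 0.907 in FT. These rates rest on few members, 3 and 19 in Sham and 48 and 52 in FT for NaCcore. For CMA they were 15 and 11 in Sham and 43 and 78 in FT. In PAG, NaCcore and CMA both FT lists also occupied more windows than both Sham lists. Values of single regions are not given for equal lists. InsularCortex, the region with the most members after PVN, showed overlapping values of 1.44 and 1.87 in Sham and 1.34 and 1.86 in FT. These regional differences were not tested one by one.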

How the data were processed

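H3K27ac ChIP-seq peak lists of 94 libraries were used, and the 4 input samples were not analysed here. According to the study's methods, the authors aligned reads to Rn5 (BWA is named in the submitters' processing notes) and called peaks in each library separately with DFilter. The deposited lists give each peak a filter score, a −log10 p-value (4.00 to 200), a normalised tag count, which is here treated as a score, and a false discovery rate in percent, which the deposited files list as 0 throughout. No list was identical to another and peaks within a list did not overlap. Peaks were merged and counted in windows of 1000 bp with Python 3.11.15, numpy 2.4.6, pandas 2.3.3 and SciPy 1.17.1. Occupancy needed 500 bp. HB entered neither side of the selection. Scores were ranked within each list. The counting was tested on simulated peaks with known answers.

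Members and rules were chosen with earlier results of these data known. Named loci are the 10 with most joined windows (ties by position), the 10 in 4 of 4 MDT and 0 other libraries with the highest mean percentile, and the 5 intervals of 1 Mb with most loci. The reading in replicates not used for the choice had an exact permutation test over libraries. Planned tests of FT against Sham (exact permutation in MDT, sign-flip over the other regions) are not reported, because the selection had used the same lists. Corresponding Sham and FT samples of a replicate were handled side by side per the study's methods, so the number pairs them, although the differences between replicates were uncorrelated between Sham and FT across MDT windows (-0.0172). Alternatives were equal lists, p below 1e-06, 250 bp or the whole window covered, shifted windows, other limits, the replicate block and libraries left out. Chromosome X and 609 unplaced sequences were left out. Gene annotation, genome sequence and marker lists of Rn5 were not used here.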

Additional observations from a re-analysis of the deposited data

Results flagged for a closer look

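On chromosome X, which lies outside the main measurement, 25 windows met the same rule, of 1474 occupied in 3 or more MDT libraries (1.70%), and 4 of the 25 (16.0%) were occupied in FT HB. Peaks there were flagged because they form a signal in data that no comparison used.

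In Raphe, both FT libraries lay below both Sham libraries, with 0.453 and 0.400 members per 1000 windows occupied in Sham and 0.377 and 0.173 in FT (difference -0.151), whereas in 12 other regions both FT libraries lay above both Sham libraries. The Raphe values rest on 36 and 28 members in Sham and 33 and 13 in FT. The Raphe difference was smaller in size than the SD of 0.248 between replicates of a region and treatment. All these values are from full lists, and with equal lists 9 of 20 regions were higher in FT. The difference between Raphe and the 12 regions was not tested.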

How the results depend on the processing

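Across 64 recomputed values, 52 were classed as unchanged. For the number of members and FT HB occupancy this meant a similar size. For the other results it meant the same sign and the same side of 0.05 in the test. Some of those tests are not reported here. In MDT the exact permutation test of FT against Sham could not reach 0.05, so only a change of sign could count. The size could still change, as with equal lists, where the MDT difference was 188 members against 910. The comparison in replicates not used for the choice kept its sign in all 12 alternatives, with libraries left out giving 42.8 to 85.1 percentage points. It stayed below 0.05 in 11 of them, the exception being regions permuted in place of libraries (64.0 points, exact p = 0.0870, the smallest possible), an alternative chosen after seeing the data. The number of members was 804 with equal lists, 1237 with the whole window covered and 1366 with 4 of 4 MDT libraries, and 1436 to 2742 with 1 MDT library left out. Of the 804 windows found with equal lists, 317 (39.4% of them, 9.13% of the members) were among the members, so which windows are called restricted depends strongly on list length. FT HB occupancy was 11.1% with equal lists, 13.6% with p below 1e-06, 12.0% with the whole window covered and 10% in members in no PVN library, the last chosen after seeing the data. Other regions after fluoxetine gave -0.0299 with equal lists, the one reversal. The cause was not tested. With the replicate block, which pairs Sham and FT by number, the MDT differences were 910 members and 11.9 points, and that of the other regions was 0.283, as without it. List depth limits all calls of absence in other regions.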
